A study of Homo sapiens with 6 samples.

Results

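Histone acetylation is set by enzymes that add acetyl groups to lysines (writers), enzymes that remove them (erasers) and proteins that bind the modified tails (readers). The erasers comprise the zinc-dependent histone deacetylases (HDACs), grouped by sequence into classes I, IIa, IIb and IV, and the NAD-dependent sirtuins. Class I HDACs act mainly within corepressor complexes such as NuRD, SIN3, CoREST and NCoR, whereas HDAC8 is the class I member that works without such a complex and is best known as the deacetylase of the cohesin subunit SMC3. Transcript levels of 48 genes of this machinery were compared here, chosen by gene symbol among the 60504 genes of the count table. They comprised 11 zinc-dependent HDACs, 7 sirtuins, 13 acetyltransferases or acetyltransferase coactivators, 8 corepressor subunits and 9 bromodomain or PHD finger readers.

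RNA came from SK-MEL-28, an established human melanoma line, in 3 libraries labelled EV, to which an empty plasmid had been added (the control genotype), and 3 libraries labelled HDAC8, to which a plasmid expressing HDAC8 had been added (forced HDAC8 expression). According to the Methods, transfected cells of both kinds were maintained in hygromycin, and neither source states whether each population was a pool or 1 clone. Both groups shared the same line and growth conditions, and the labels number the 3 replicates of each group. How many separate transfections these came from is not stated in the sources used here. The labels describe ribosomal RNA depletion and a directional library kit, whereas the Methods name other RNA purification and library kits. Library totals lay between 20850021 and 29822903 estimated counts, and levels are given as CPM, the count relative to the TMM-scaled library total. All 48 genes passed the filter on low counts, and 46 of them had at least 100 counts in every library. The identity of the line was visible in its transcripts: the melanocyte lineage genes SOX10, MITF, PMEL, MLANA, TYR and DCT had group means between 68.3 and 5250 CPM, whereas the keratinocyte genes KRT5 and KRT14, the leukocyte gene PTPRC and the endothelial gene CDH5 had at most 5 counts in any library. The endothelial gene PECAM1 had 2 to 17 counts per library, and the fibroblast genes COL1A1 and PDGFRB had group means between 1.19 and 5.04 CPM. Of the 6 melanocyte genes, SOX10, PMEL and TYR were higher, MITF and DCT were lower and MLANA was not called (log2 fold changes of 0.23, 0.34, 0.44, -0.14, -1.77 and -0.077, with adjusted p of 0.00463, 0.000154, 1.12e-05, 0.0263, 1.13e-09 and 0.340 by edgeR). The largest differences were those of DCT, at 233 ± 10.7 and 68.3 ± 2.07 CPM, and TYR, at 329 ± 6.79 and 447 ± 6.86 CPM (SD, n = 3 each), and the part of these genes' differences in the results was not tested. Because whole cultures were measured, fewer cells of a kind and less RNA per cell cannot be told apart.

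HDAC8 (ENSG00000147099, chromosome X, 72329516 to 72573101 on the minus strand of GRCh38 in the GENCODE 44 annotation), the gene that was introduced, was read first as a check of the labels. It was at 16.6, 15.2 and 11.8 CPM in the libraries labelled EV and at 14.2, 15.2 and 13.5 CPM in those labelled HDAC8. The 2 groups overlapped, with means of 14.5 ± 2.48 and 14.3 ± 0.881 CPM (SD, n = 3 each). The log2 fold change (libraries labelled HDAC8 over those labelled EV) was -0.024 with a 95% interval of -0.31 to 0.26 (adjusted p = 0.924, edgeR's quasi-likelihood test). An increase of HDAC8 transcript was therefore not seen in these counts, and whether reads from the plasmid would have been counted on this gene is not stated in the sources used here. The paper probed HDAC8 protein by immunoblot in cells given either plasmid, which these counts do not measure. The label of each library is accordingly kept as a label in what follows, and every direction is that of the libraries labelled HDAC8 relative to those labelled EV.

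Most genes of the acetylation machinery differed little between the groups. At an adjusted p below 0.05, HDAC4 rose (1 of the 48) and HDAC7, KAT2B, TBL1XR1 and BRD2 fell (4 of the 48). This was 10.4% of them, against 22.7% of the 16195 genes tested (11.1% higher and 11.7% lower). The background share depended on the genes counted: DESeq2 called the same number of the 48 and 11.4% of the 30137 genes with any count. That base includes genes of very low count, which DESeq2 can leave without an adjusted p. Its share is therefore not comparable with the 22.7%. The median log2 fold change was 0.0047, beside 0.0091 over all genes tested, and the median absolute log2 fold change was 0.12, beside 0.19. Among genes with mean levels between the quartiles of the 48 (22.1 and 92.3 CPM), 28.1% passed the same adjusted p. With the additional threshold of an absolute log2 fold change of 0.58, HDAC4 alone remained, against 4.07% of tested genes higher and 3.45% lower at both thresholds. The values of the groups did not overlap for 6 of the 48 genes in the higher direction and for 5 in the lower, against 18.7% and 19.4% of all genes tested. For 38 of the 43 genes that were not called, the 95% interval of the log2 fold change lay wholly within ±0.58.

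**Figure D1:**
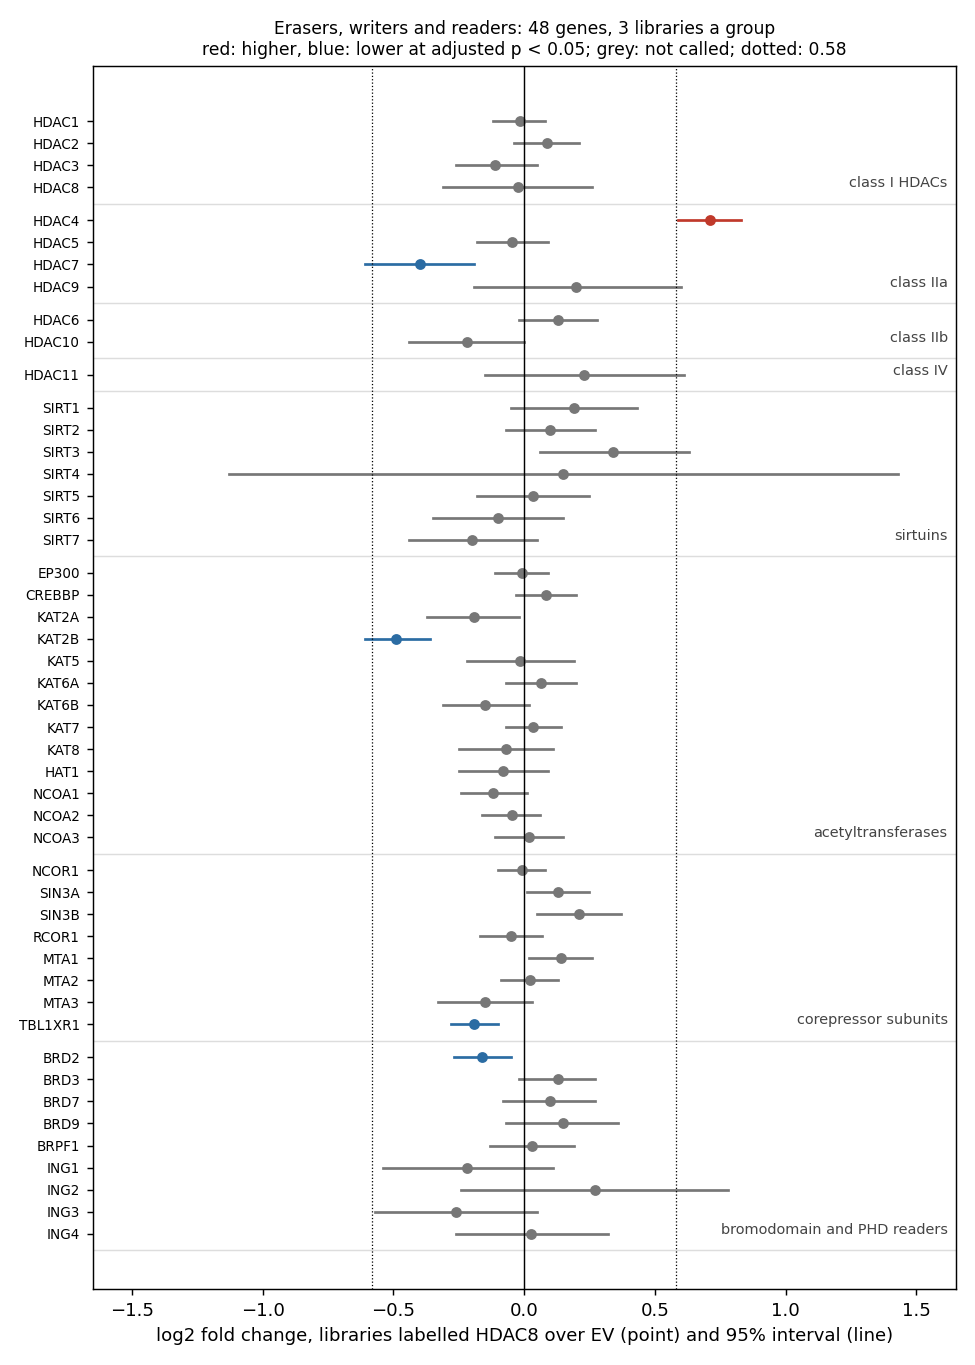
Log2 fold change of each of the 48 genes, libraries labelled HDAC8 over those labelled EV (point), with its 95% interval (line), arranged by role; dotted lines mark ±0.58. HDAC4, at 0.71, is the only red point (higher at an adjusted p below 0.05), the 4 blue points (lower) lie between -0.49 and -0.16, and the widest interval is that of SIRT4.

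HDAC4 and HDAC7 are class IIa HDACs, which have little deacetylase activity of their own, shuttle between nucleus and cytoplasm and repress transcription by binding factors such as MEF2 and recruiting NCoR corepressor complexes. Both changed, in opposite directions. HDAC4 (ENSG00000068024, chromosome 2, 239048168 to 239401654) was at 61.6, 63.5 and 65.9 CPM in the libraries labelled EV and at 101, 104 and 108 CPM in those labelled HDAC8. Every library labelled HDAC8 lay well above every library labelled EV. The means were 63.7 ± 2.14 and 104 ± 3.55 CPM (SD, n = 3 each), and HDAC4 rose 1.64-fold, or 0.71 on the log2 scale (standard error 0.055, 95% interval 0.59 to 0.83, adjusted p = 2.41e-06). Of the genes tested, 1.35% had a smaller p and 11.6% a larger absolute log2 fold change.

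HDAC7 (ENSG00000061273, chromosome 12, 47782722 to 47833132) was at 42.1, 38.9 and 41.5 CPM in the libraries labelled EV and at 30, 26.8 and 35.9 CPM in those labelled HDAC8. The groups did not overlap, although HDAC8 replicate 3 came close to the lowest EV library. HDAC7 fell to 0.758 times its EV level, a log2 fold change of -0.40 (standard error 0.097, 95% interval -0.61 to -0.19, adjusted p = 0.0108). Without EV replicate 1 its adjusted p was 0.0524, and without HDAC8 replicate 3 its log2 fold change was -0.53. An annotated antisense RNA overlaps 9.70% of the exon bases of HDAC7, and its mean of 5.11 counts per library was small beside 841 for HDAC7. HDAC7 had non-whole counts in 5 of the 6 libraries, and whether its reads were shared with another gene was not tested. The ratio of HDAC4 to HDAC7 CPM was 1.46, 1.63 and 1.59 in the libraries labelled EV and 3.36, 3.88 and 3.01 in those labelled HDAC8. This ratio was formed after the values were seen and is given without a test.

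The other class IIa genes were not called. HDAC5, a close relative of HDAC4, was at 49.7, 47.4 and 46.2 CPM against 46.3, 47.9 and 44.7 CPM, a log2 fold change of -0.045 (95% interval -0.18 to 0.09, adjusted p = 0.672). HDAC5 shares 24.0% of its exon bases with G6PC3 on the opposite strand, and the strand setting of the counting is not stated. HDAC5 had non-whole counts in 0 of the 6 libraries, and whether reads were shared within this pair was not tested. HDAC9 was low, at 5.11, 4.61 and 4.19 CPM against 5.50, 5.58 and 4.91 CPM, and its interval of -0.19 to 0.60 left a wider range of changes possible (adjusted p = 0.479).

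The upstream sequences of HDAC4 and HDAC7 are shown because these relatives moved in opposite directions, because the study examined accessibility at c-Jun sites, and because MITF is the melanocyte lineage factor. RefSeq start windows (250 bases before to 50 after a start, GRCh38.p14) were found for 42 of the 48 genes, 73 windows in all, and were searched on both strands for CACGTG and CATGTG, E-box letters bound by MITF and related factors, for the AP-1 letters TGACTCA and for the CREB letters TGACGTCA. The 250 bases before the start are printed 5′ to 3′, with any such match in capitals. The HDAC4 window is chr2:239401650-239401899 on the minus strand, 1 of 5 windows of this gene, and the HDAC7 window is chr12:47819904-47820153 on the minus strand.
HDAC4: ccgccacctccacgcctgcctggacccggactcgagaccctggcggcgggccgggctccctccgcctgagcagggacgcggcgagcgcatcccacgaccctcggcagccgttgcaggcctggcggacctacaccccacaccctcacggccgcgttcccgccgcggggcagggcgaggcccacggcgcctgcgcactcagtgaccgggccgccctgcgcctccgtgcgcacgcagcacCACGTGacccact
HDAC7: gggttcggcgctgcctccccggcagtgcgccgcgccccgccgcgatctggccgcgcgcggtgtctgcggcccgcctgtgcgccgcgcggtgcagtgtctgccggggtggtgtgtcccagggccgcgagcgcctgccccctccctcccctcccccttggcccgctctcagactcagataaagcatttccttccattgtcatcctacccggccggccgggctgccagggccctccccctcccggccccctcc
The HDAC4 window held CACGTG beginning 13 bases before the start, and the HDAC7 window held none of the 4 motifs. The other HDAC4 windows, except 1 with CATGTG, held none of them in the 250 bases before the start. With 5 windows, HDAC4 had more sequence in which a match could occur. CACGTG occurred in 3 of the 73 windows (4.11%, in HDAC4, KAT5 and SIRT1), against 7.26% of all 35116 RefSeq windows. CATGTG occurred in 4.11% (in another window of HDAC4, in HDAC9 and in NCOA1) against 11.1%, TGACTCA in 1.37% (NCOR1) against 4.95%, and TGACGTCA in 1.37% (SIRT4) against 1.85%. These matches describe letters only, and no binding was measured in these libraries.

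The class I HDACs, whose catalytic activity accounts for much of the deacetylation by nuclear corepressor complexes, were not called by edgeR or DESeq2, and 0 of the 4 had an unadjusted p below 0.05. HDAC1, a subunit of NuRD, SIN3 and CoREST, was at 145, 146 and 153 CPM in the libraries labelled EV and at 148, 145 and 146 CPM in those labelled HDAC8. The difference was a log2 fold change of -0.016 with a 95% interval of -0.12 to 0.08 (adjusted p = 0.853). HDAC2, which shares these complexes, was at 124, 117 and 112 CPM against 128, 129 and 118 CPM. The groups overlapped, and its log2 fold change was 0.086 (95% interval -0.04 to 0.21, adjusted p = 0.335). HDAC3, the catalytic subunit of NCoR, was at 61.9, 54.6 and 59.1 CPM against 55.8, 50.2 and 56.7 CPM, a log2 fold change of -0.11 (95% interval -0.26 to 0.05, adjusted p = 0.318).

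In class IIb, HDAC6, the cytoplasmic deacetylase of tubulin, was at 43.9, 43.0 and 46.9 CPM against 47.8, 46.1 and 52.4 CPM, with a log2 fold change of 0.13 (95% interval -0.02 to 0.28, adjusted p = 0.223). HDAC10, a polyamine deacetylase, was at 27.6, 32.1 and 32.4 CPM against 24.2, 24.9 and 30.2 CPM. In that gene the HDAC8 replicate 3 library stood within the range of the EV libraries, and the log2 fold change was -0.22 (adjusted p = 0.150, and 0.0189 without HDAC8 replicate 3). HDAC10 shares 55.8% of its annotated exon bases with the neighbouring gene MAPK12 on the same strand and had non-whole counts in all 6 libraries, so its level is uncertain. HDAC11, the class IV enzyme, was at 7.01, 4.83 and 6.92 CPM against 7.47, 7.26 and 7.29 CPM. Its groups did not overlap, EV replicate 2 was the low library, and the log2 fold change of 0.23 was not called (95% interval -0.15 to 0.61, adjusted p = 0.394).

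Levels of different HDACs were compared per kilobase of the MANE Select transcript, a reference isoform that need not be the one used in these cells. HDAC1 was the most abundant of the 48 genes on this scale, at 69.9 CPM per kb in the libraries labelled EV and 69.1 in those labelled HDAC8, followed among the HDACs by HDAC3 at 30.3 and 28.1. HDAC8 was in place 8 of 11 in both groups, at 8.28 ± 1.42 and 8.14 ± 0.502 CPM per kb (SD, n = 3 each). HDAC4 moved from place 9 (7.52 CPM per kb) to place 4 (12.3 CPM per kb), and HDAC7 moved from place 6 (9.69) to place 9 (7.34). In the libraries labelled HDAC8, HDAC4 ranged from 11.9 to 12.8 CPM per kb and overlapped HDAC2 (12.1 to 13.2) and HDAC6 (11.2 to 12.7), so its place among these is not set. In the libraries labelled EV, HDAC2, HDAC10 and HDAC6 lay close together at 12.1, 12 and 10.8 CPM per kb, and the ranges over libraries overlapped between HDAC2 and HDAC10 and between HDAC10 and HDAC6. There, HDAC4 (7.28 to 7.79) lay within the range of the HDAC8 gene (6.7 to 9.45), which also overlapped HDAC5 and HDAC7. In the libraries labelled HDAC8, HDAC7 (6.37 to 8.51) overlapped HDAC8 (7.67 to 8.67) and HDAC5. The order of these genes is therefore not set either. HDAC9 was lowest, at 0.469 and 0.540 CPM per kb.

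**Figure D2:**
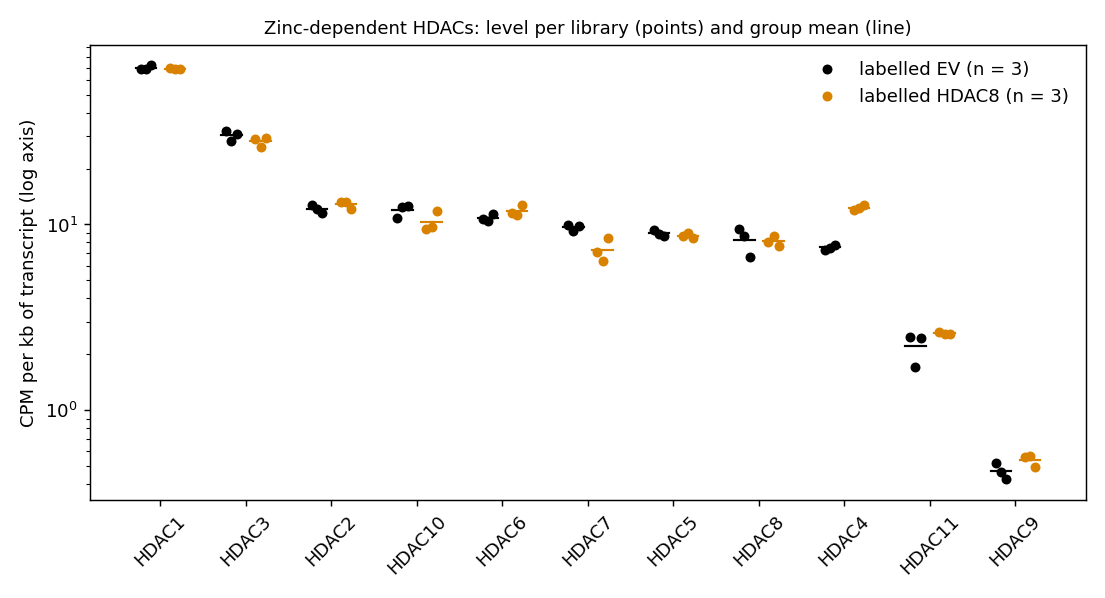
Level of the 11 zinc-dependent HDACs in each library (points) and group mean (line), in CPM per kb of MANE Select transcript on a log axis, ordered by the mean of the libraries labelled EV. HDAC4 rises from 7.52 to 12.3 CPM per kb and HDAC7 falls from 9.69 to 7.34, while HDAC8 is at 8.28 and 8.14.

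Summed over the 11 zinc-dependent HDACs, the level per length was 174, 169 and 174 CPM per kb in the libraries labelled EV and 172, 168 and 175 in those labelled HDAC8, a difference of the means of -0.236%. Class I summed to 121 ± 2.39 and 118 ± 1.72 CPM per kb and class IIb to 22.8 ± 1.30 and 22.1 ± 2.03 (SD, n = 3 each), and both overlapped between the groups. The class IIa sum was 27.1, 26.1 and 26.8 CPM per kb against 28.3, 28.2 and 30.2, higher in all 3 libraries labelled HDAC8 by 8.44% on average, with HDAC4 gaining more on this scale than HDAC7 lost. The sirtuins summed to 48.8 ± 0.706 and 48.6 ± 2.36 CPM per kb. These sums are descriptions, without a test.

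Sirtuins couple deacylation to the supply of NAD and work in the nucleus (SIRT1, SIRT6, SIRT7), the cytoplasm (SIRT2) and the mitochondria (SIRT3, SIRT4, SIRT5). None of the 7 was called by edgeR, 1 had an unadjusted p below 0.05, and DESeq2 called none either. SIRT3, the main mitochondrial deacetylase, had the lowest p, at 8.17, 7.14 and 7.97 CPM in the libraries labelled EV and at 10.7, 9.38 and 9.44 CPM in those labelled HDAC8. Its groups did not overlap, and the log2 fold change was 0.34 (95% interval 0.06 to 0.63, adjusted p = 0.0855). SIRT7 was at 24.4, 26.3 and 24.4 CPM against 22.4, 17.9 and 25 CPM, with an adjusted p of 0.242, and of 0.0477 without HDAC8 replicate 3. SIRT1 had a log2 fold change of 0.19 (95% interval -0.05 to 0.43, adjusted p = 0.257). SIRT4, with 8 to 35 counts per library, had an interval of -1.13 to 1.43, so that even a change of more than 2-fold was not excluded.

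Among the writers, EP300 and CREBBP are paralogous acetyltransferases of histone H3 lysine 27, and the study centres on EP300. EP300 (ENSG00000100393, chromosome 22, 41092592 to 41180077) was at 350, 357 and 366 CPM in the libraries labelled EV and at 369, 359 and 337 CPM in those labelled HDAC8. The groups overlapped throughout, and the log2 fold change was -0.010 with a 95% interval of -0.11 to 0.09 (adjusted p = 0.909). CREBBP (ENSG00000005339, chromosome 16, 3725054 to 3880713) was at 183, 174 and 186 CPM against 197, 198 and 181 CPM, a log2 fold change of 0.085 (95% interval -0.03 to 0.20, adjusted p = 0.284). Per length, EP300 was above CREBBP in both groups, at 40.8 against 16.8 CPM per kb in the libraries labelled EV and 40.5 against 17.8 in those labelled HDAC8. These are transcript levels, and acetylation or activity of the proteins was not measured in these libraries.

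KAT2B (PCAF, ENSG00000114166, chromosome 3, 20040446 to 20154404), an acetyltransferase of histone H3 lysine 9 within the SAGA and ATAC complexes, was the writer that fell. It was at 73.5, 75.6 and 72.1 CPM in the libraries labelled EV and at 53.3, 53.8 and 50.4 CPM in those labelled HDAC8. All 3 libraries labelled HDAC8 lay below all those labelled EV, and KAT2B was 0.713 times its EV level, a log2 fold change of -0.49 (standard error 0.057, 95% interval -0.61 to -0.36, adjusted p = 7.52e-05). Its paralog KAT2A (GCN5), which can occupy the same place in these complexes, was at 85.2, 92.7 and 86.4 CPM against 69.8, 74.1 and 87.6 CPM. The HDAC8 replicate 3 library was again inside the EV range, and the log2 fold change of KAT2A was -0.19 (95% interval -0.37 to -0.02, adjusted p = 0.113, and 0.00373 without that library). The other 11 acetyltransferases and coactivators, EP300 and CREBBP included, had log2 fold changes between -0.15 (KAT6B) and 0.085 (CREBBP), and none was called. KAT5 shares 38.6% of its exon bases with RNASEH2C on the opposite strand, so its level is uncertain. The groups of NCOA1, a nuclear receptor coactivator, did not overlap, at 77.9, 73.9 and 72.3 CPM against 71.1, 66.0 and 69.7 CPM (log2 fold change -0.12, adjusted p = 0.188).

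**Figure D3:**
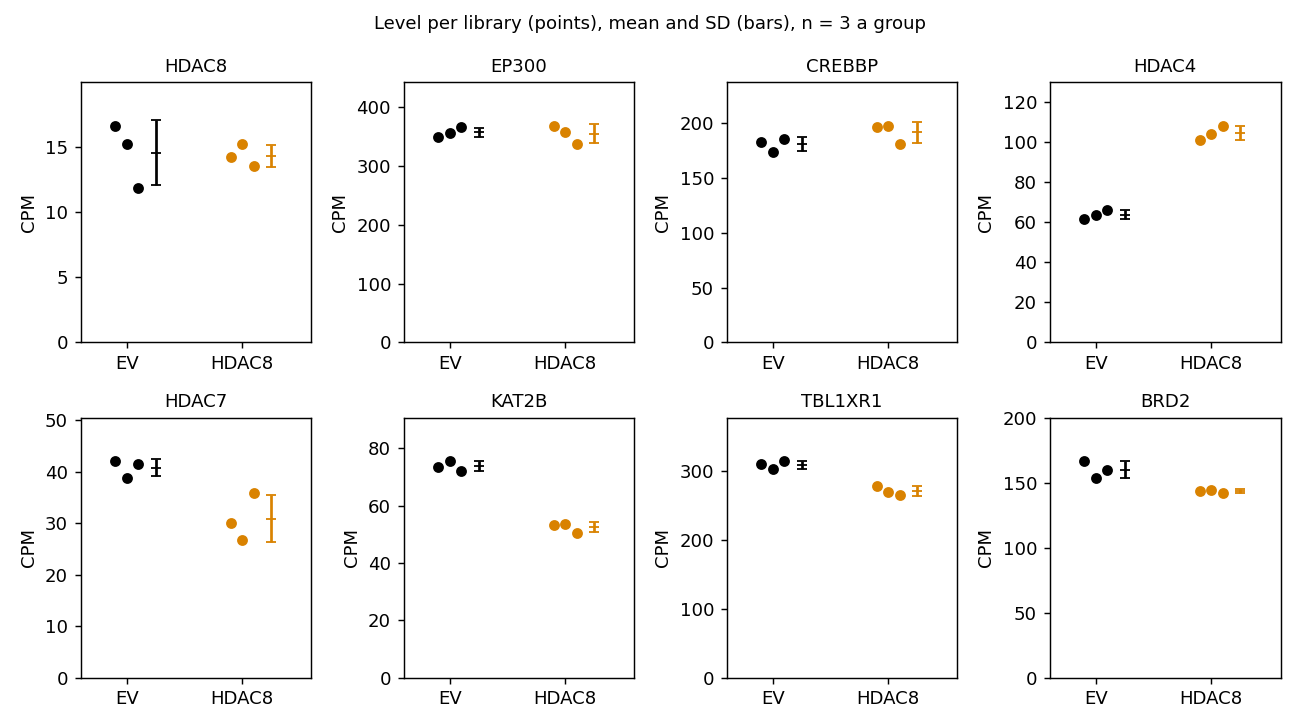
Level in CPM of HDAC8, EP300, CREBBP and the 5 called genes in each library (points), with the mean and SD of 3 libraries a group (bars), each axis starting at 0. HDAC8, EP300 and CREBBP overlap between groups, HDAC4 lies between 61.6 and 65.9 CPM in the libraries labelled EV and between 101 and 108 in those labelled HDAC8, and the other 4 genes are lower without overlap.

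Corepressor subunits bring the class I HDACs to chromatin. TBL1XR1 (ENSG00000177565, chromosome 3, 177019340 to 177228000), a WD40 subunit of NCoR that helps exchange corepressors for coactivators, was at 310, 303 and 315 CPM in the libraries labelled EV and at 279, 270 and 265 CPM in those labelled HDAC8. The groups did not overlap, and TBL1XR1 fell by a small amount, to 0.877 times its EV level (log2 fold change -0.19, standard error 0.043, adjusted p = 0.00731). NCOR1, the scaffold of the same complex, had a log2 fold change of -0.0096 with a 95% interval of -0.10 to 0.08 (adjusted p = 0.904). Of the SIN3 scaffolds, SIN3B was at 58, 64.0 and 64.9 CPM against 66.1, 71.8 and 78.2 CPM. Its values did not overlap, but its log2 fold change of 0.21 missed the threshold (95% interval 0.05 to 0.37, adjusted p = 0.0624), and the adjusted p was 0.0275 without HDAC8 replicate 1. SIN3A had a log2 fold change of 0.13 (adjusted p = 0.123, and 0.0421 without HDAC8 replicate 3). Among the NuRD subunits MTA1, MTA2 and MTA3, log2 fold changes lay between -0.15 and 0.14 and the lowest adjusted p was 0.0959, for MTA1. RCOR1, the CoREST scaffold, had a log2 fold change of -0.051 (adjusted p = 0.557).

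Readers dock complexes on acetylated or methylated tails. BRD2 (ENSG00000204256, chromosome 6, 32968594 to 32981505), a bromodomain protein of the BET family, was at 167, 154 and 160 CPM in the libraries labelled EV and at 144, 145 and 142 CPM in those labelled HDAC8. It fell in all 3 libraries labelled HDAC8, to 0.896 times its EV level (log2 fold change -0.16, standard error 0.049, 95% interval -0.27 to -0.05, adjusted p = 0.0346). This call was the least firm of the 5: it was lost in 4 of the 6 fits that left out a library, with adjusted p between 0.0524 and 0.155 (without EV replicate 1, EV replicate 3, HDAC8 replicate 1 or HDAC8 replicate 2). BRD3, another BET protein, had a log2 fold change of 0.13 (95% interval -0.02 to 0.27, adjusted p = 0.207). The SWI/SNF readers BRD7 and BRD9 had log2 fold changes of 0.10 and 0.15, with adjusted p of 0.450 and 0.328. BRD7 shares 41.8% of its exon bases with ADCY7, and BRD3 18.6% with BRD3OS, each on the opposite strand, which leaves their levels uncertain. BRPF1, a scaffold for MYST acetyltransferases, had a log2 fold change of 0.030 (adjusted p = 0.816). The ING proteins read methylated histone H3 lysine 4 for deacetylase and acetyltransferase complexes. All 4 were low, with group means of at most 11.4 CPM, and their log2 fold changes lay between -0.26 (ING3) and 0.27 (ING2) with adjusted p of at least 0.230.

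To place these genes in their complexes, 61 further subunits and metabolic suppliers were compared. Of these, 9 rose and 10 fell at the same adjusted p, 31.1% of them, beside 22.7% of all genes tested and 28.1% of those at levels between the quartiles of the 48, and their median log2 fold change was -0.00061. At both thresholds MLLT3 and RCOR2 were higher (2 of the 61) and 0 were lower, beside 4.07% and 3.45% of all genes tested. MLLT3 (AF9), a YEATS domain reader of acetylated and crotonylated lysines, was at 8.91, 9.49 and 9.36 CPM in the libraries labelled EV and at 18.9, 19.4 and 16.0 CPM in those labelled HDAC8. It rose 1.96-fold without overlap (log2 fold change 0.97, standard error 0.11, adjusted p = 5.98e-05). RCOR2, a CoREST scaffold, had 8, 11 and 11 counts against 57, 20 and 22 counts. Its log2 fold change was 1.56 (adjusted p = 0.0285), but the call rested on few counts and on HDAC8 replicate 1, without which the log2 fold change was 1.13 (adjusted p = 0.179). It was also lost without EV replicate 1, EV replicate 2, EV replicate 3 or HDAC8 replicate 2, with adjusted p between 0.0502 and 0.118, and with DESeq2 (adjusted p = 0.0527).

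Both NCoR subunits among them were called, beside 22.7% of all genes tested. TBL1X, the paralog of TBL1XR1, was at 24.4, 29.9 and 26.7 CPM in the libraries labelled EV and at 39.7, 39.9 and 35.6 CPM in those labelled HDAC8, a rise without overlap (log2 fold change 0.51, 95% interval 0.32 to 0.70, adjusted p = 0.00138). The ratio of TBL1X to TBL1XR1 CPM was 0.0787, 0.0987 and 0.0847 in the libraries labelled EV and 0.142, 0.148 and 0.134 in those labelled HDAC8. GPS2, which binds both NCoR and TBL1, fell (log2 fold change -0.26, adjusted p = 0.0108).

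In NuRD, GATAD2B and MBD2 rose and GATAD2A and RBBP4 fell (2 and 2 of 8 listed subunits, beside 11.1% and 11.7% of all genes tested). MBD2 was not called without HDAC8 replicate 2 (adjusted p = 0.0503), nor RBBP4 without EV replicate 1, EV replicate 2 or HDAC8 replicate 2 (adjusted p between 0.0698 and 0.0822). The paralogs GATAD2A and GATAD2B, alternative subunits that join the remodelling and deacetylase modules of NuRD, changed in opposite directions. GATAD2A was at 177, 160 and 175 CPM against 144, 145 and 144 CPM (log2 fold change -0.24, adjusted p = 0.00457), and GATAD2B was at 132, 128 and 122 CPM against 159, 152 and 152 CPM (log2 fold change 0.27, adjusted p = 0.00192). The ratio of GATAD2B to GATAD2A CPM was 0.748, 0.798 and 0.694 in the libraries labelled EV and 1.10, 1.05 and 1.06 in those labelled HDAC8. The pairs of paralogs were picked after their values were seen, and their ratios are given without a test. Other ratios formed in the same way changed less. KAT2A over KAT2B had means of 1.19 in the libraries labelled EV and 1.47 in those labelled HDAC8, and MORF4L2 over MORF4L1 had means of 0.906 and 0.990. In each of these pairs both genes had log2 fold changes of the same sign. None of the 7 genes listed under SIN3 was called by edgeR or DESeq2, beside 22.7% of all genes tested by edgeR, and 0 had an unadjusted p below 0.05. Each gene was listed under 1 complex only, so subunits that SIN3 shares with NuRD, such as RBBP4, are counted under NuRD.

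In SAGA and ATAC, to which KAT2B belongs, TADA1 rose and TRRAP and YEATS2 fell, and the other 8 subunits were not called. Of 16 NuA4 and MYST partners, MORF4L2 and JADE3 rose and MRGBP and BRPF3 fell. The calls of TADA1, TRRAP, MRGBP and BRPF3 were lost in some fits that left out a library. TADA1 was not called without EV replicate 1, EV replicate 3, HDAC8 replicate 1 or HDAC8 replicate 2 (adjusted p up to 0.130), nor TRRAP without EV replicate 3, HDAC8 replicate 1 or HDAC8 replicate 2 (up to 0.0941). MRGBP was not called without EV replicate 1, EV replicate 2, EV replicate 3 or HDAC8 replicate 2 (adjusted p up to 0.0776). BRPF3 was not called without EV replicate 1, EV replicate 2, EV replicate 3 or HDAC8 replicate 1 (adjusted p up to 0.142), with DESeq2 (adjusted p = 0.0767) or without a filter on low counts (adjusted p = 0.0513). ATAD2, a bromodomain ATPase, was at 264, 265 and 268 CPM in the libraries labelled EV and at 191, 179 and 173 CPM in those labelled HDAC8, the lowest log2 fold change among the 61 genes (-0.55, adjusted p = 6.66e-06). Both enzymes of NAD synthesis on the list fell, NAMPT from 134 ± 1.84 to 104 ± 12.6 CPM and NMNAT1 from 19.6 ± 0.931 to 14.5 ± 0.862 CPM (SD, n = 3 each), with log2 fold changes of -0.37 and -0.44 (adjusted p = 0.00427 and 0.00500). ACLY, which makes cytosolic acetyl-CoA from citrate, rose (log2 fold change 0.17, adjusted p = 0.0210), a call lost without EV replicate 1, EV replicate 2, EV replicate 3 or HDAC8 replicate 2, with adjusted p between 0.0612 and 0.0943.

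**Figure D4:**
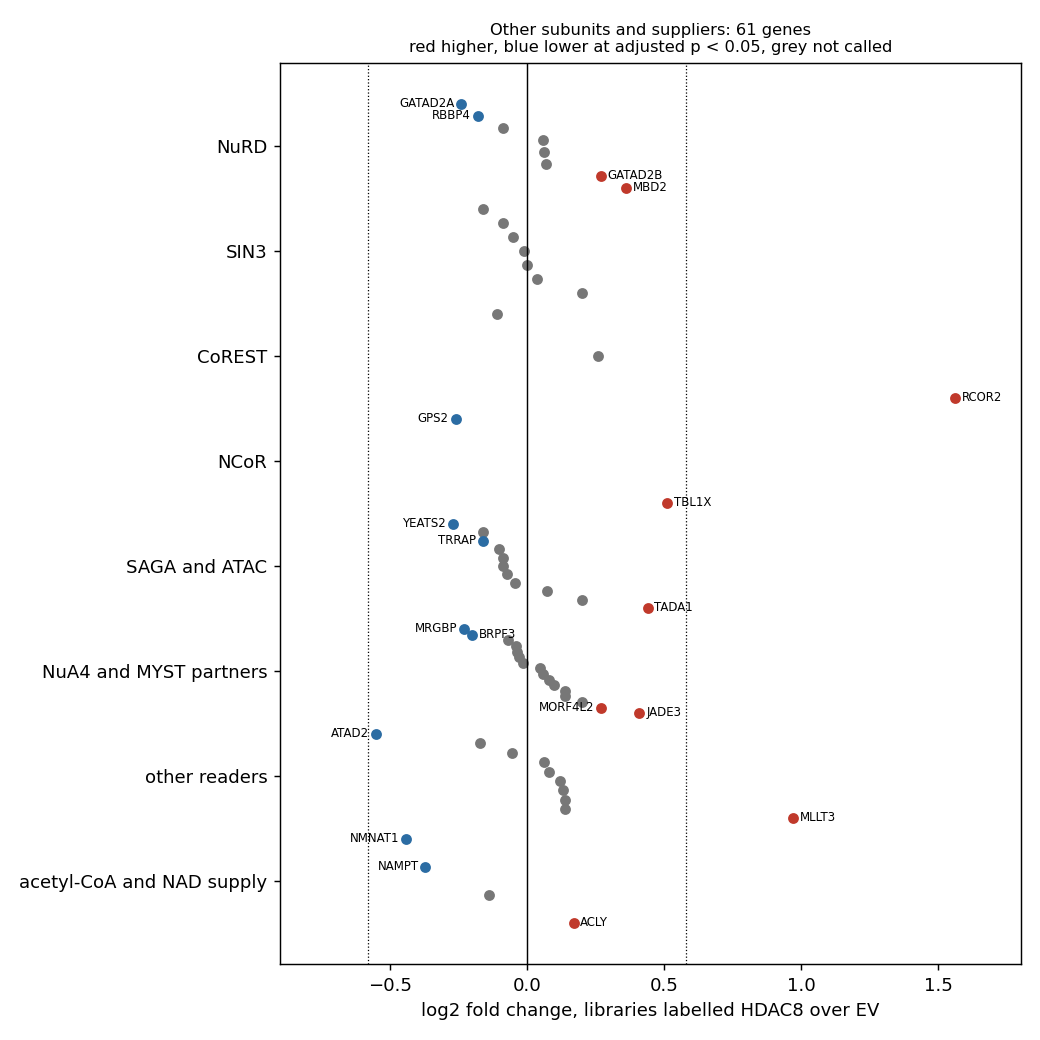
Log2 fold change of 61 further subunits and suppliers, libraries labelled HDAC8 over those labelled EV, by complex (each point 1 gene, spread vertically for legibility); dotted lines mark ±0.58. The 9 red points (higher) and 10 blue points (lower) are named, with RCOR2 at 1.56, MLLT3 at 0.97 and ATAD2 at -0.55 farthest from 0. No point is called among the genes listed under SIN3, and RBBP4, which SIN3 shares, is shown under NuRD.

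Neighbouring genes were read to see whether the called genes moved with their surroundings. Within 1 Mb of HDAC4, 9 other genes were tested, with a median log2 fold change of 0.11 and values from -0.68 to 0.70, and the calls among them were 1 higher and 2 lower. Around HDAC7, 16 neighbours had a median of -0.034 and values from -1.23 to 0.67, with 1 higher and 2 lower. The 3 tested neighbours of KAT2B had log2 fold changes between 0.11 and 2.60, none in the direction of KAT2B. Around BRD2, which lies in the HLA class II region, 53 neighbours had a median of -0.068 and values from -4.47 to 1.59. Of these, 1 was higher and 8 were lower. Over all genes tested, 11.1% were higher and 11.7% lower, and whether neighbours differed from these shares was not tested. TBL1XR1 had a single tested neighbour, at -2.45.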

How the data were processed

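For the SK-MEL-28 libraries the authors deposited 1 table of estimated counts by Ensembl gene, not normalized. Per the Methods and the submitters' processing notes, these came from RSEM after Trimmomatic trimming and STAR alignment of the reads against transcripts of GRCh38; the annotation release and the strand setting are not given in the sources used here. Reads matching more than 1 gene are split by RSEM, and 12 of the 48 genes had a non-whole count in at least 1 library. HDAC7 was the only called gene among these. Of the called further subunits, RBBP4, YEATS2 and ACLY had non-whole counts in all 6 libraries, GPS2 and NAMPT in 5, and ATAD2 and NMNAT1 in 1. A second deposited table holds the authors' log2 fold change and p-value for this comparison, with 2 group values per gene, and was not used.

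Counts were rounded and matched to samples by column name. The quasi-likelihood test of edgeR 4.0.16 (R 4.3.3) was applied after filterByExpr and TMM scaling, without a replicate block. P-values of the 16195 genes kept were adjusted together by the Benjamini-Hochberg method, with thresholds of 0.05 and, where stated, 0.58 (log2), which are those of the Methods. Each standard error was obtained from the log2 fold change and its F statistic. The floor of 3 counts corresponded to 0.102 to 0.148 CPM, covering counting error only, and p-values measure the spread between these libraries. Positions and MANE Select lengths are from GENCODE 44. Alternatives were DESeq2 1.42.0, upper-quartile normalization, no filter, at least 10 counts in every library, the replicate number as a block, and each library left out. Tests were tried on simulated counts.

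The genes and lists were chosen with earlier results of these data known. Values in every library were given for HDAC8, EP300, CREBBP, the other zinc-dependent HDACs and every called gene, for up to 3 others per group by smallest p, and for further subunits past both thresholds; other further subunits, and uncalled genes beyond these, were named after their values were seen. Of the 61 further subunits, 60 were matched by symbol and 1 by identifier. A further listed gene is not reported here.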

Additional observations from a re-analysis of the deposited data

How the results depend on the processing

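Of the 5 calls, those of HDAC4, KAT2B and TBL1XR1 held under every alternative, with log2 fold changes of 0.68 to 0.74, -0.51 to -0.47 and -0.21 to -0.18 when each library was left out. HDAC7 lost its call without EV replicate 1, and BRD2 lost its call in 4 such fits; the cause was not tested. Leaving out a library gave 1 to 2 higher and 2 to 7 lower genes among the 48, the 2 without EV replicate 1 and the 7 without HDAC8 replicate 3, where HDAC10, SIRT7 and KAT2A were added. DESeq2, upper-quartile normalization and a minimum of 10 counts in every library changed no call among the genes they tested (SIRT4 could not be tested at that minimum), and without a filter 2 were higher (SIN3B added) and 5 lower (KAT2A added). Over all genes, 11.4% were called by DESeq2 and 13.8% without a filter, both of the 30137 genes with any count, against 22.7% of 16195. The larger base includes genes of very low count, so these shares are not directly comparable. Among the 61 further subunits, leaving out a library gave 6 to 12 higher and 7 to 10 lower, the 6 without EV replicate 1, EV replicate 3 or HDAC8 replicate 2, and 11 of the 19 called kept their call under every alternative. The median log2 fold change of the 48 genes was -0.02 to 0.017 over those fits. The log2 fold change of HDAC8 was -0.16 to 0.08, changing sign in 3 of them.

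Signs also changed in such fits for 10 of the other 47 genes, none of them called, with ranges of -0.032 to 0.0056 for HDAC1, -0.40 to 0.61 for SIRT4, -0.011 to 0.067 for SIRT5, -0.17 to 0.0014 for SIRT6, -0.044 to 0.018 for EP300, -0.11 to 0.044 for KAT5, -0.0029 to 0.054 for KAT7, -0.019 to 0.064 for NCOA3, -0.0026 to 0.082 for BRPF1 and -0.065 to 0.073 for ING4.

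The replicate numbers did not pair the libraries: deviations of same-numbered libraries correlated at -0.0418, -0.107 and -0.0835, and no library correlated best with its own number. With the replicate block, 2 of the 48 genes were higher (SIN3B added, adjusted p = 0.0410) and 3 lower (BRD2 not called, adjusted p = 0.0716), and 3083 of all genes were called against 3681 without it. The block also ended the calls of RCOR2, BRPF3 and ACLY (adjusted p = 0.0760, 0.0782 and 0.0557).

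Over all genes, 2559 to 4118 were called when a library was left out. With 3 libraries a group, an exact permutation test of a single gene cannot go below p = 0.10, so calls rest on the spread pooled over genes. Of the 43 genes not called, 5 had 95% intervals reaching beyond 0.58 (SIRT3, SIRT4, ING2, HDAC9 and HDAC11), with group means of at most 9.83 CPM, and changes of that size were not excluded for them.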
